A study of Mus musculus with 4 samples.

Results

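The cell cycle and DNA replication genes described here are 37 genes, found by their symbols among the 22558 gene symbols of the study, all 37 of which were measured in each library. They are a list of genes used by dividing progenitor cells. The list selects by name and not by a measured value, but it was drawn up with earlier results of these data known. The study sequenced RNA of whole retinas, in which Fezf2, a zinc-finger transcription factor, had been knocked out (KO) or left intact. The groups were wildtype control littermates and Fezf2 knockout mice at postnatal day 7 (P7), and the same pair at postnatal day 14 (P14), all on the background that the labels write as C57/BL/6J, with 1 library in each group and 4 in all. How the allele was made, and how many animals or retinas went into a library, is not given in the sources used here. Since no group had a replicate, no test was possible between a pair of libraries.

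A cell that divides first activates D-type cyclins and E2F factors, then loads the hexameric MCM helicase onto replication origins, copies its DNA with the help of the sliding clamp PCNA and a supply of deoxynucleotides, and finally builds a spindle and separates its chromosomes under the control of mitotic kinases. Transcripts for these steps are made in waves: E2F factors drive the genes of replication, and the MuvB complex with B-MYB and FOXM1 drives the genes of mitosis. In the mouse retina, progenitors leave the cell cycle from the centre to the periphery, and division ends during the postnatal period while photoreceptors, bipolar cells and Mueller glia mature.

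The genes share features near their start sites. RefSeq windows of 300 bases, 250 before the start and 50 after it on the build GRCm38.p6, were matched by symbol for 30 of the 37 genes. Windows of the other 7 (Ccnd1, Ccna2, Foxm1, Mcm4, Aurkb, Kif20a and Tpx2) were not analysed here. For each gene the first listed window was used, so further start sites of a gene were not counted for it. In 25 of the 30 windows, bases 21 to 50 after the start lay in an annotated transcript of the gene, on the same strand. The cell cycle genes homology region (CHR), the site of the MuvB complex, was searched as TTTGAA or TTCGAA on both strands. It was found in 17 of 30 windows (56.7%), against 12.5% of the windows of 9610 genes with a mean of at least 0.5 FPKM and 19.2% of all 32851 windows. In the 250 bases before the start alone it was in 10 of 30 (33.3%), against 11.2% and 17.1%, so in 7 of the 17 no match lies wholly before the start. The CCAAT box, bound by NF-Y, was searched as CCAAT on both strands. It was in 25 of 30 windows (83.3%), against 39.0% and 37.4%, and all 17 windows with a CHR match also held it. An E2F site, searched as TTTCCCGC, TTTGGCGC, TTTGCCGC or TTTCGCGC on both strands, was in 5 of 30 windows (16.7%), against 3.98% and 2.26%. Matches of a motif can overlap each other on opposite strands, and a window counts once. These matches are descriptions of letters, not of binding.

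The stretches below are the 170 bases before the start of 8 genes on GRCm38.p6, written 5′ to 3′ on the strand of the gene, with CHR, CCAAT box and E2F matches in capitals. Mki67, Top2a, Cdk1 and Cdc20 stand for mitosis genes that were far lower at P14. Mcm5 and Mcm6 stand for the replicative helicase, and Plk1 and Pcna for genes that were not lower.
Mki67, chr7:135716380-135716549, minus strand: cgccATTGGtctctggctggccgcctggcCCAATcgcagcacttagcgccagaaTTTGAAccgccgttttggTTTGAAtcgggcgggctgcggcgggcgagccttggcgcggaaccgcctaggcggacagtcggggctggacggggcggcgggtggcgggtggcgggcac
Top2a, chr11:99024190-99024359, minus strand: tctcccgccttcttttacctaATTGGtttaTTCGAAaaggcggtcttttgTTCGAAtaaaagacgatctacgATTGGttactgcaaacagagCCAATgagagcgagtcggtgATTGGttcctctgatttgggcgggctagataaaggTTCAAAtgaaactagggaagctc
Cdk1, chr10:69352913-69353082, minus strand: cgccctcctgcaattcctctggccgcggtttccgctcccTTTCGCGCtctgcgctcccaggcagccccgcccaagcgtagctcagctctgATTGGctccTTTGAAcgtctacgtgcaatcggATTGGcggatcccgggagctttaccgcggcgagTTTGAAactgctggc
Cdc20, chr4:118437344-118437513, minus strand: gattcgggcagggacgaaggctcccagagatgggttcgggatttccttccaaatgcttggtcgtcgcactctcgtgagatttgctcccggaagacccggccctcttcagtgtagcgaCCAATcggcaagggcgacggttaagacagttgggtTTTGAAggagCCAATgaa
Mcm5, chr8:75109339-75109508, plus strand: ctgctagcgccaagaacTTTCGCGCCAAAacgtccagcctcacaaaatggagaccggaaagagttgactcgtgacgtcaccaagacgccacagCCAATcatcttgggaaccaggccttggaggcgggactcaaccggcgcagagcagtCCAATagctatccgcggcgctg
Mcm6, chr1:128359706-128359875, minus strand: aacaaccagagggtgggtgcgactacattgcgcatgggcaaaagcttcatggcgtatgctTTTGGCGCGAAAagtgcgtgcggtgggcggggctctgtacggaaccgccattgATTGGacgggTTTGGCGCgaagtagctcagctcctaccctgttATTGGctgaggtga
Plk1, chr7:122159265-122159434, plus strand: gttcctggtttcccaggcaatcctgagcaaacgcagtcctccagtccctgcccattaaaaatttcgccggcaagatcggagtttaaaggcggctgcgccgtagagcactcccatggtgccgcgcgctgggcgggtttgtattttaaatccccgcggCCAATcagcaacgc
Pcna, chr2:132253181-132253350, minus strand: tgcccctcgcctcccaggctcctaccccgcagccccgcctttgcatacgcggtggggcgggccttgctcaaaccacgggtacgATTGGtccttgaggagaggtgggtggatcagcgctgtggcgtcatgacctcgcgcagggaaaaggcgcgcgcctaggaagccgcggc
The stretches of Mki67, Top2a, Cdk1 and Cdc20 hold both CHR and CCAAT matches. Other mitosis genes do not: the windows of Birc5 and Nusap1 hold neither, and those of Ccnb1 and Cenpe hold a CCAAT but no CHR match. The E2F matches lay in Mcm3, Mcm5, Mcm6, Mcm7 and Cdk1, so 4 of the 5 encode helicase subunits. In the whole window a CHR match was in 11 of 20 genes that were lower at P14 beyond counting error in both genotypes (55.0%) and in 6 of the other 10 (60.0%), among them Plk1, whose match lies after the start, outside the stretch printed. In the 250 bases before the start the shares were 40% and 20%. An E2F match was in 5 of the 20 and in 0 of the other 10. With so few windows these shares are given as a description only.

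Levels are given in FPKM, fragments scaled by transcript length and library size, each with the lower and upper bound deposited with it. A difference is called beyond counting error where the bounds of 2 libraries did not overlap. The level itself lay above its own upper bound for 2153 gene symbols in control P7 and 2066 in KO P7. At P14 it did so for 1787 in control and 2217 in KO retina. Among the 37 genes this was 1 gene in each library, Pcna. Of the other genes named below, Cdk4 and Zwint are examples in every library. How far the calls and shares given here depend on such levels was not tested. The bounds do not cover differences between animals or dissections. The files hold no counts, so the depth is known only through the bounds. Their half-width had a median of 21.8% of the level in the control P7 library, 22.1% in KO P7, 34.6% in control P14 and 33.1% in KO P14 over the genes of the list with a level above 0. The targeted gene Fezf2 was at 8.32 FPKM in control and 0.592 FPKM in KO retina at P7, and at 4.02 and 0.126 FPKM at P14. Markers of the labelled tissue were present in every library. The photoreceptor gene Rcvrn, recoverin, was at 233 and 207 FPKM in control and KO retina at P7 and at 1599 and 1730 FPKM at P14, above its own upper bound in each library.

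The 37 genes were transcribed at low levels. Their median was 1.2 FPKM in control P7, 1.07 in KO P7, 0.457 in control P14 and 0.485 in KO P14, against 9.93, 9.75, 8.84 and 8.75 FPKM over the 13683 genes with a mean of at least 0.5 FPKM over the 4 libraries, small RNAs and loci under 300 bases left out. Under 1 FPKM lay 14 and 15 of the 37 at P7 and 24 at P14 in each genotype. A mean of 0.5 FPKM was reached by 28 of the 37, and the other 9 were Ccnb1, Ccnb2, Mybl2, Aurkb, Bub1, Ttk, Cenpe, Cenpf and Mki67. In whole-tissue RNA, fewer dividing cells and less RNA per cell cannot be told apart.

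**Figure D1:**
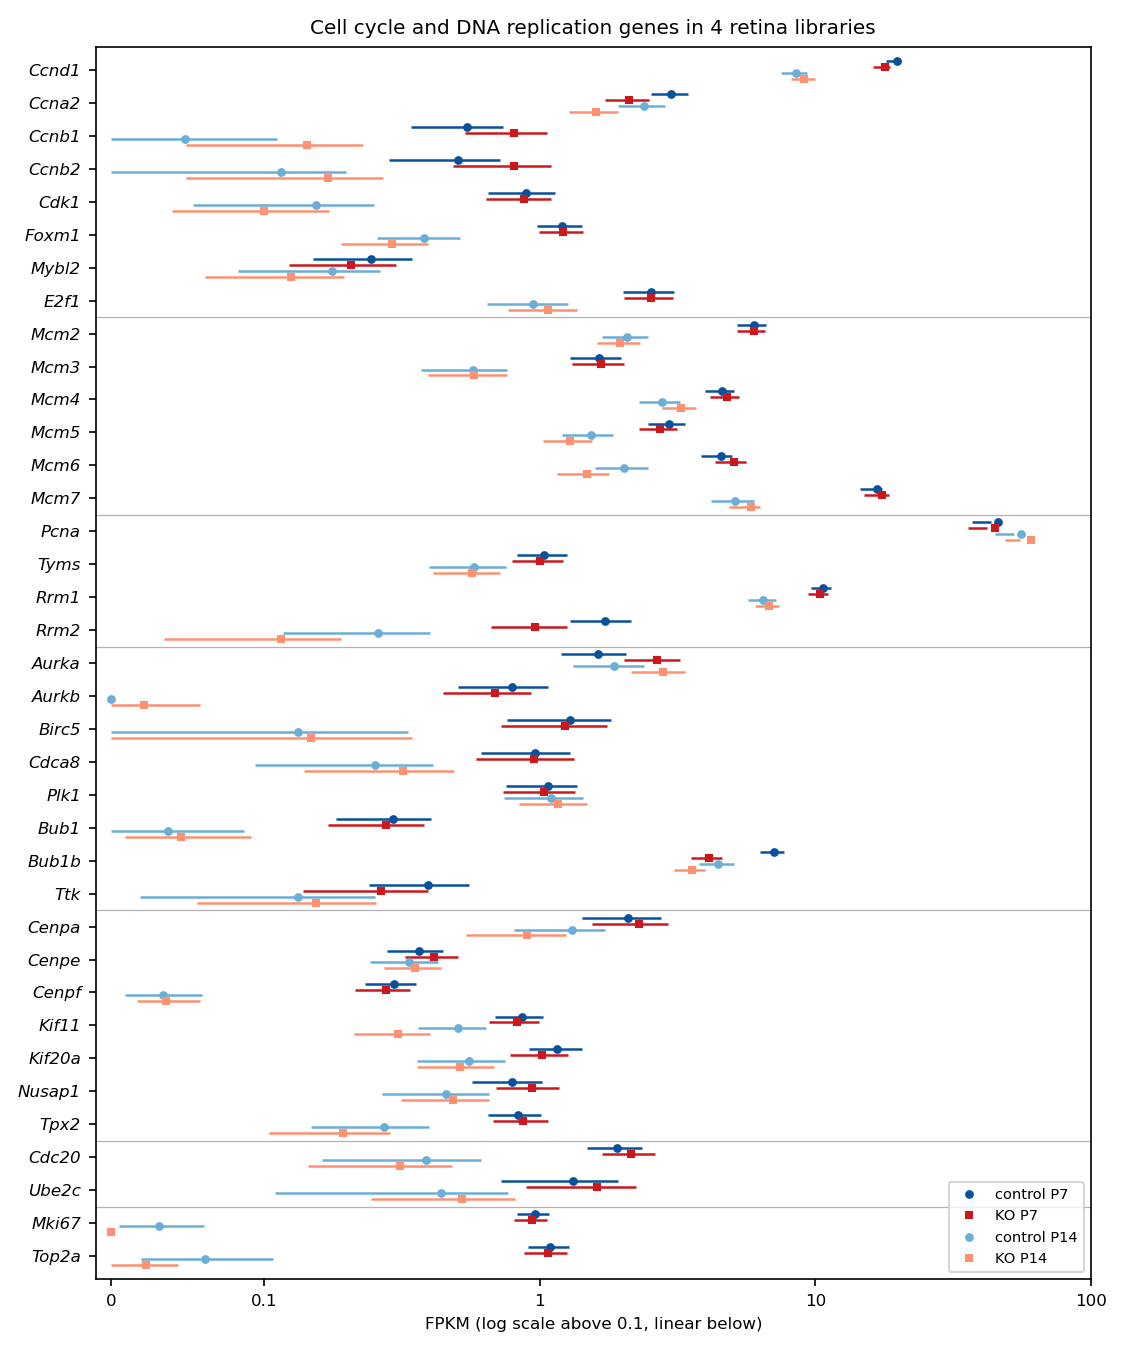
FPKM (x axis, logarithmic above 0.1 and linear below) of the 37 genes (rows, grouped by role) in the 4 libraries. Points are levels and bars the deposited bounds; for Pcna the level lies outside its own bounds in every library, and at P14 most points lie left of both P7 points.

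The main difference among the 4 libraries was with age. In the control retina 27 of the 37 genes (73.0%) were lower at P14 beyond counting error, where 36.7% of the 13683 genes were, and 1 (2.70%) was higher, where 26.9% were. In the KO retina 29 (78.4%) were lower, against 38.1%, and 1 was higher, against 28.3%. Over the 21802 genes with no floor on the level, as the 37 have none, 24.5% were lower in the control and 25.4% in the KO retina. The median log2 difference of the 37 genes after adding 1 FPKM to each level was -0.58 in control and -0.65 in KO retina, against -0.07 and -0.08 over the 13683 genes. Adding 1 FPKM understates the change of genes this low. The median level left at P14, without that addition, was 36.1% of the P7 level in control and 35.7% in KO retina, each over the 36 genes above 0. The same 26 genes were lower beyond counting error in both genotypes, and Pcna was higher in both.

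A limma fit on log2(FPKM + 1) with genotype and age as additive terms used all 4 libraries, 2 at each age. Among 13683 genes it called 39.5% lower and 30.3% higher with age at a Benjamini-Hochberg adjusted p below 0.05. Of the 37 genes 24 fell, 1 rose (Pcna), 3 did not pass (Ccna2, Aurka and Plk1) and 9 were not fitted because their mean was under 0.5 FPKM. With no floor all 37 were fitted, and 30 fell and 1 rose, against 27.9% and 21.8% of the genes of that fit. This fit has 1 residual degree of freedom and borrows its spread from all genes (11.7 prior degrees of freedom), so its p-values rest on that shared spread.

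The proliferation markers were nearly lost. Mki67, which encodes the Ki-67 protein that coats mitotic chromosomes (chromosome 7, bases 142881471 to 142908062 of mm9), was at 0.958 FPKM in control P7, 0.935 in KO P7 and 0.0311 in control P14, and was listed at 0 in KO P14. Top2a, the topoisomerase that untangles replicated chromosomes (chromosome 11, 98854261 to 98885503), was at 1.09, 1.07, 0.0612 and 0.0227 FPKM in the same order. Both P7 libraries lay far above both P14 libraries for each gene, and the levels left at P14 were 3.25% of the P7 level for Mki67 in control, and 5.61% in control and 2.13% in KO retina for Top2a. Read as counting error alone, with 2 standard deviations above and 2 below the level, the bounds of Mki67 correspond to about 231 fragments in control P7 and 215 in KO P7 but to about 5.0 in control P14, so the P14 levels are known only as low. In limma, Top2a fell by 0.997 ± 0.118 (SE) on the log2 scale (adjusted p = 7.26e-06).

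The helicase genes fell together. MCM2 to MCM7 form the ring that unwinds DNA at the replication fork, and all 6 were lower at P14 beyond counting error in both genotypes. Mcm7 (chromosome 5, 138605817 to 138613090) was the most abundant, at 16.8 FPKM in control P7, 17.4 in KO P7, 5.13 in control P14 and 5.82 in KO P14. Mcm2 (chromosome 6, 88833468 to 88848774) was at 5.98, 6.00, 2.08 and 1.96 FPKM, and Mcm6 at 4.56, 5.09, 2.03 and 1.48 FPKM. For all 6 genes the bounds of the 2 genotypes overlapped at each age, and those of the 2 ages did not overlap in either genotype. Mcm6 in KO retina at P14 was at 73.0% of the control level. Mcm4, at 4.60, 4.80, 2.77 and 3.25 FPKM, kept the largest share of its P7 level, 60.1% in control and 67.6% in KO retina, and Mcm7 was at 30.6% and 33.5%. Mcm3 was at 1.64, 1.67, 0.572 and 0.579 FPKM and Mcm5 at 2.94, 2.74, 1.53 and 1.29 FPKM. In limma the log2 differences of the 6 ran from -0.512 ± 0.111 (SE) for Mcm4 (adjusted p = 0.00111) to -1.48 ± 0.0982 for Mcm7 (adjusted p = 3.71e-08). The locus of Mcm7 also holds 3 microRNA genes.

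The sliding clamp and the nucleotide enzymes parted ways. Pcna, the clamp that tethers DNA polymerases and also serves DNA repair (chromosome 2, 132075022 to 132078916), was the most abundant of the 37 genes, at 46.1 FPKM in control P7, 44.9 in KO P7, 55.9 in control P14 and 60.7 in KO P14. Both P14 levels were above both P7 levels, and it rose by 0.349 ± 0.0791 (SE) in limma (adjusted p = 0.00154). With libraries rescaled to an equal total (TPM), it was still higher at P14, by 0.18 in control and 0.32 in KO retina on the log2(TPM + 1) scale, but the bounds then overlapped in the control. With a 1.2-fold gap asked between bounds, it was not called higher in either genotype. In all 4 libraries its FPKM exceeded its own upper bound, and pseudogenes named Pcna-ps1 and Pcna-ps2 exist, so its value is uncertain. Without Pcna the summed level of the other 36 genes was 104 and 100 FPKM in control and KO retina at P7 and 46.5 and 46.3 FPKM at P14.

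Ribonucleotide reductase makes deoxynucleotides from ribonucleotides with a large and a small subunit. The large subunit gene Rrm1 was at 10.7 FPKM in control P7, 10.4 in KO P7, 6.47 in control P14 and 6.77 in KO P14. The small subunit gene Rrm2, whose transcript is restricted to dividing cells, was at 1.72, 0.965, 0.259 and 0.115 FPKM. The subunits thus kept unequal shares of their P7 levels in the control retina, 60.4% for Rrm1 and 15.0% for Rrm2. Tyms, the thymidylate synthase gene, was at 1.04, 1.0, 0.578 and 0.569 FPKM, and has a pseudogene, Tyms-ps. All 3 fell in limma (adjusted p = 0.000139 for Rrm1, 1.54e-05 for Rrm2 and 0.0143 for Tyms).

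Among regulators, Ccnd1, which encodes cyclin D1 and acts at the entry into the cycle (chromosome 7, 152115836 to 152125830), stayed well expressed. It was at 19.8 FPKM in control P7, 17.9 in KO P7, 8.52 in control P14 and 9.11 in KO P14, and fell by 1.02 ± 0.0981 (SE) in limma (adjusted p = 1.11e-06). The mitotic kinase gene Cdk1 was at 0.895, 0.874, 0.154 and 0.0998 FPKM, and its partner Ccnb1, cyclin B1, at 0.544, 0.805, 0.0484 and 0.143 FPKM. Ccnb2 was at 0.504, 0.806, 0.115 and 0.170 FPKM. Pseudogenes named Ccnb1-ps and Ccnb2-ps exist. For all 3 genes the P7 bounds lay above the P14 bounds in both genotypes.

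The transcription factor genes of the list differed in their course. E2f1 was at 2.54 FPKM in both P7 libraries, 0.949 in control P14 and 1.07 in KO P14, and Foxm1 at 1.2, 1.22, 0.381 and 0.291 FPKM, so both were lower with age. Mybl2, the gene of B-MYB, was at 0.244, 0.207, 0.176 and 0.125 FPKM, with bounds that overlapped between the ages in both genotypes. Bub1, at a like level at P7 (0.293 and 0.276 FPKM), had bounds that did not overlap between the ages.

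Of the mitotic kinases and the chromosome passenger complex, which corrects attachments of chromosomes to the spindle, Aurkb and Birc5 were nearly lost. Aurkb, its kinase, was at 0.791 FPKM in control P7 and 0.686 in KO P7, was listed at 0 in control P14 and was at 0.0216 FPKM in KO P14. Birc5, survivin, was at 1.29, 1.24, 0.133 and 0.148 FPKM, and Cdca8, borealin, at 0.961, 0.957, 0.252 and 0.319 FPKM, which left 26.2% of the P7 level in control and 33.4% in KO retina. Incenp, the scaffold of the complex, which is not among the 37 genes and was chosen after its values were seen, was at 6.48, 6.08, 4.96 and 5.14 FPKM, with bounds that overlapped between the ages in both genotypes. The spindle checkpoint kinase gene Bub1 was at 0.293, 0.276, 0.0372 and 0.0459 FPKM. Aurkb, Birc5, Cdca8 and Bub1 were lower at P14 beyond counting error in both genotypes.

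Of the other mitotic kinase and checkpoint genes, Aurka and Plk1 did not share this course, and Ttk and Bub1b shared it in part. Aurka, the kinase of spindle poles, was at 1.63 FPKM in control P7, 2.67 in KO P7, 1.86 in control P14 and 2.80 in KO P14. Plk1, polo-like kinase 1, was at 1.07, 1.04, 1.10 and 1.17 FPKM. Neither passed the limma test for age (adjusted p = 0.506 and 0.675), and the differences of 0.0880 ± 0.114 and 0.0577 ± 0.117 (SE) on the log2 scale were small beside those of Top2a. Ttk, another checkpoint kinase gene, was at 0.395, 0.265, 0.133 and 0.154 FPKM, with overlapping bounds. It was left at 33.5% of its P7 level in control and 58.3% in KO retina. On the TPM scale its bounds did not overlap between the ages in control, and limma with no floor called it lower. Bub1b, which encodes the checkpoint protein BubR1 (chromosome 2, 118423947 to 118467328), was at 7.11, 4.10, 4.43 and 3.56 FPKM. In limma Bub1b fell with age by 0.370 ± 0.122 (SE, adjusted p = 0.0160). It was lower with age beyond counting error in control but not in KO retina, where 86.9% of the P7 level was left, and whether the genotypes differ in this was not tested, since each change rests on 1 pair of libraries.

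Genes of centromeres, spindles and motors had a mixed course. Cenpf was at 0.296 FPKM in control P7, 0.278 in KO P7, 0.0341 in control P14 and 0.0362 in KO P14, whereas Cenpe, the kinesin of kinetochores, was at 0.365, 0.414, 0.336 and 0.354 FPKM, with bounds that overlapped at both genotypes. Cenpa, the histone H3 variant of centromeres, was at 2.1, 2.30, 1.31 and 0.902 FPKM. The spindle motor gene Kif11 was at 0.860, 0.829, 0.504 and 0.305 FPKM and Tpx2, which activates Aurora A, at 0.832, 0.872, 0.272 and 0.193 FPKM. Nusap1 was at 0.793, 0.940, 0.457 and 0.485 FPKM and Kif20a at 1.16, 1.02, 0.554 and 0.516 FPKM. All 7 were lower at P14 in each genotype, 4 beyond counting error in control and 6 in KO retina. The locus of Nusap1 overlaps Oip5, and that of Kif20a overlaps Brd8 and Cdc23, which were at 23.4 and 17.8 FPKM in control P7, so reads in shared bases cannot be told apart.

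The genes of mitotic exit were lower as well. Cdc20, an activator of the anaphase-promoting complex, was at 1.91 FPKM in control P7, 2.14 in KO P7, 0.388 in control P14 and 0.312 in KO P14, and fell by 1.16 ± 0.120 (SE) in limma (adjusted p = 2.01e-06). Its locus overlaps Elovl1, which was at 2.80, 3.04, 2.73 and 2.85 FPKM. Ube2c, the ubiquitin-conjugating enzyme of that complex, was at 1.32, 1.62, 0.440 and 0.524 FPKM, with bounds just overlapping in the control retina (0.724 to 1.92 at P7 and 0.110 to 0.770 at P14).

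Sorted by the share of the P7 level left in the control retina, 10 of the 36 genes above 0 were under 25% (Ccnb1, Ccnb2, Cdk1, Rrm2, Birc5, Bub1, Cenpf, Cdc20, Mki67 and Top2a), 12 lay from 25% to 50%, 9 from 50% to 75% and 5 at 75% or more (Ccna2, Pcna, Aurka, Plk1 and Cenpe). In the KO retina the counts were 12, 10, 8 and 6. The same 5 genes plus Bub1b were at 75% or more, and Aurkb, Foxm1 and Tpx2 joined those under 25%, while Mki67 was listed at 0. All 37 age differences had the same sign in both genotypes. Across the 37 genes, which are not independent, the differences in control and KO retina, which share no library, had a Pearson coefficient of 0.92. It was 0.93 across the 13683 genes, so this likeness is not particular to the list.

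**Figure D2:**
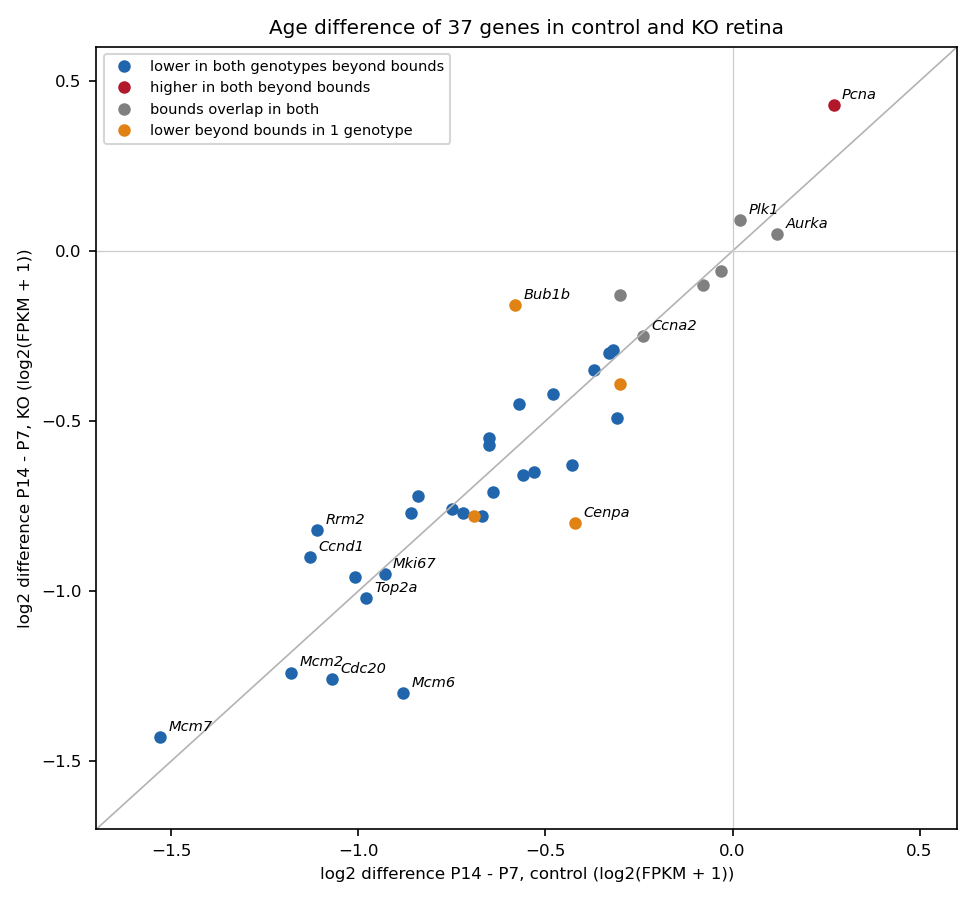
Difference P14 minus P7 on the log2(FPKM + 1) scale in control (x axis) and KO retina (y axis), 1 point per gene, with the line of equal differences. Points lie along the line from Mcm7 (-1.53 and -1.43) to Pcna (0.27 and 0.43), and Bub1b, Mcm6 and Cenpa lie farthest off it.

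Between the genotypes the 37 genes differed little. At P7, 3 of 37 were lower in the KO library beyond counting error and 0 were higher, where 5.88% and 6.85% of the 13683 genes were. At P14, 1 was lower and 0 higher, where 7.87% and 7.02% were. On the TPM scale the split over all genes moved from 937 higher and 805 lower to 499 and 1214 at P7, and from 960 and 1077 to 535 and 1684 at P14, so the balance between the directions depends on the scaling. With no floor, as for the 37 genes, 4.01% of genes were lower and 4.5% higher at P7, and 5.28% and 4.70% at P14. The 3 genes lower at P7 (8.11%) are thus above both backgrounds, by a count too small to read, and the other counts are under them. Its median log2 difference was -0.02 at P7 and 0.01 at P14, against 0.01 and 0.00. In limma 0 of the 28 genes fitted passed for genotype, where 0.234% of all genes were called lower and 0% higher. At an unadjusted p below 0.05 in limma, 3 of the 28 were lower (Bub1b, Ccna2 and Rrm2) and 1 was higher (Aurka). Over all 13683 genes 1284 were below that threshold in either direction, so counts this small cannot be read as particular to the list. No other tool was run.

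The 3 genes lower at P7 were Bub1b, Rrm2 and Ccna2. Bub1b was at 4.10 FPKM in KO against 7.11 in control retina (bounds 3.54 to 4.60 and 6.29 to 7.69), which was 57.7% of the control level. At P14 it was at 3.56 against 4.43 FPKM, and the bounds overlapped (3.06 to 3.98 and 3.79 to 5.05). Bub1b was the only one of the 3 whose bounds were at least 1.2-fold apart. Rrm2 was at 0.965 against 1.72 FPKM at P7 (0.666 to 1.26 and 1.29 to 2.15) and at 0.115 against 0.259 FPKM at P14 (0.0348 to 0.191 and 0.117 to 0.399). The bounds were close at P7 and overlapped at P14.

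Ccna2, cyclin A2, which acts in replication and early mitosis (chromosome 3, 36463787 to 36470918), was lower in the KO library by a like amount at both ages. It was at 2.11 against 2.99 FPKM at P7 (bounds 1.72 to 2.50 and 2.54 to 3.44) and at 1.60 against 2.39 FPKM at P14 (1.28 to 1.93 and 1.92 to 2.85). The KO levels were 70.4% and 67.2% of the control levels, and the bounds at P14 overlapped by a narrow margin that closed on the TPM scale. In limma the genotype difference was -0.371 ± 0.113 (SE, adjusted p = 0.297). The locus of Ccna2 overlaps Exosc9, which was at 19.5, 20.3, 15.0 and 14.1 FPKM in the 4 libraries, in the order control and KO at P7 and then at P14. With age, Ccna2 was not lower beyond counting error in either genotype.

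Both KO libraries held more Aurka than their controls. At P7 it was at 2.67 FPKM in KO and 1.63 in control (bounds 2.02 to 3.24 and 1.19 to 2.06), and at P14 at 2.80 and 1.86 FPKM (2.15 to 3.36 and 1.32 to 2.39). The bounds overlapped at each age, and the limma difference was 0.445 ± 0.114 (SE, adjusted p = 0.181). Its locus (chromosome 2, 172181696 to 172196006) has 2 close neighbours in the annotation. Cstf1 was at 21.7, 23.2, 14.2 and 17.5 FPKM in the same order. 2010011I20Rik was at 13.6 FPKM in control and 24.4 in KO retina at P7 (bounds 12.2 to 14.4 and 22.2 to 25) and at 15.3 and 16.6 FPKM at P14, so it was higher beside Aurka at P7. The part of neighbouring transcripts in the value of Aurka was not tested.

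The gene called at P14 was Mki67, which was listed at 0 in the KO library, with both bounds at 0, against 0.0311 FPKM in the control (bounds 0.00508 to 0.0610). A level listed at 0 carries no width, so this call rests on about 5.0 fragments in 1 library and none in the other. Across the 37 genes the genotype differences at P7 and P14, which share no library, had the same sign for 20 genes, near an even split. Their Pearson coefficient was 0.57, against 0.07 across the 13683 genes. The genes farthest from 0 at P7 were Bub1b (-0.67 at P7 and -0.25 at P14), Aurka (0.48 and 0.41), Rrm2 (-0.47 and -0.18) and Ccna2 (-0.36 and -0.38). Each had the same sign at both ages. The coefficient was not computed without them, so how far it rests on them was not tested. By the smaller of its differences at the 2 ages, Aurka (0.41) was farthest from 0, followed by Ccna2 (-0.36).

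**Figure D3:**
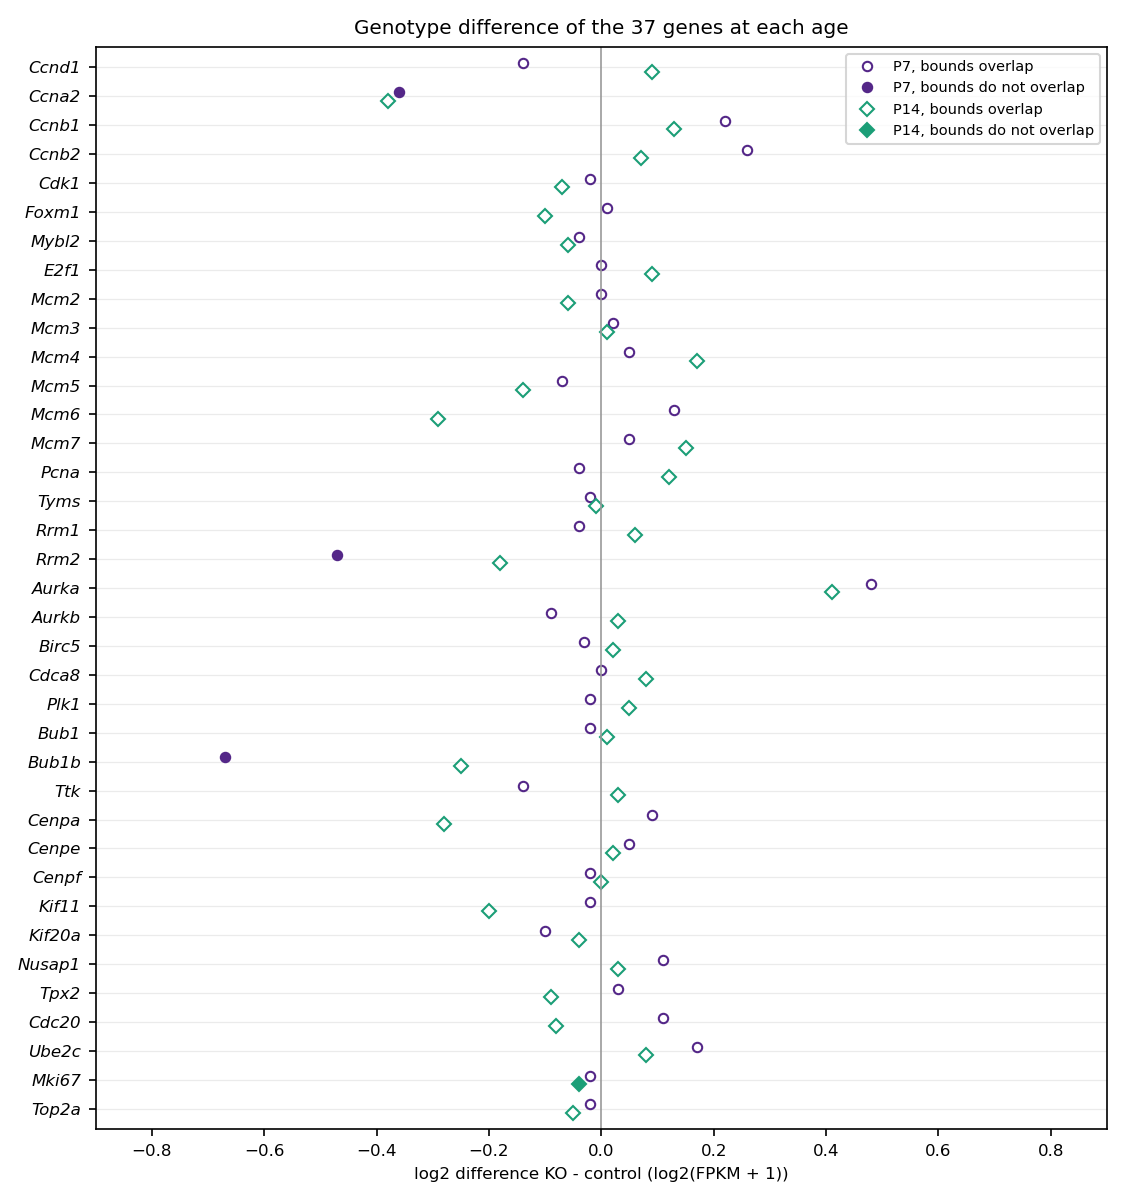
Difference KO minus control on the log2(FPKM + 1) scale at P7 (circles) and P14 (diamonds) for the 37 genes; filled symbols have bounds that do not overlap. Most symbols lie near 0; Bub1b (-0.67), Rrm2 (-0.47) and Ccna2 (-0.36) are filled at P7 and Mki67 (-0.04) at P14.

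Markers of tissue next to the retina and of blood differed between the genotype pairs. Of 6 lens genes 3 were higher in KO at P7 and 3 lower at P14 beyond counting error, with a summed level of 1.24 and 8.71 FPKM in control and KO at P7 and 8.09 and 1.19 FPKM at P14. Of 6 erythroid genes 0 differed at P7 and 4 were lower in KO at P14 (291, 316, 1140 and 356 FPKM summed). Of 5 pigment epithelium genes 1 was higher in KO at P7 and 4 were lower at P14 (72.3, 80.7, 142 and 99.5 FPKM summed). The part of these tissues in the values of the 37 genes was not tested.

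Other genes of the same processes were counted in lists. Beside these counts stand the shares of all 13683 genes, 36.7% lower and 26.9% higher with age in control and 38.1% and 28.3% in KO retina, or 24.5% and 25.4% lower with no floor. Of 68 other mitosis genes 37 were lower with age beyond counting error in control and 36 in KO retina, and 7 and 6 were higher (medians -0.26 and -0.27). The list includes 30 genes under a mean of 0.5 FPKM. Of the most abundant, Zwint, of the kinetochore, was at 55.7, 58.4, 83.7 and 80.9 FPKM and Bub3, a checkpoint gene, at 32.1, 33.9, 26.5 and 27.9 FPKM. Spc25, a subunit of the kinetochore complex NDC80, stood apart, at 11.2 FPKM in control P7, 9.29 in KO P7, 133 in control P14 and 110 in KO P14. It was thus higher at P14 in both genotypes, and lower in KO than in control beyond counting error at P14 (bounds 105 to 115 and 127 to 140).

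Of 49 genes of origin licensing and the replication fork 20 were lower with age beyond counting error in each genotype, and 7 in control and 9 in KO retina were higher (medians -0.21 and -0.15). The share of lower genes is near that of all genes, and the share of higher genes is under it. The most abundant, Rpa1, which coats single-stranded DNA, was at 26.9, 24.8, 56.2 and 56.4 FPKM, and Tipin, of the fork protection complex, at 15.4, 18.6, 8.98 and 8.76 FPKM. Of 12 nucleotide synthesis genes 6 were lower and 2 higher in each genotype. Of 32 other cyclins, kinases and members of the E2F or Rb family 13 were lower in control and 18 in KO retina, and 5 were higher in each, so the share of lower genes in control is near that of all genes. Cdk4, the partner of cyclin D, was at 65.0, 64.1, 25.1 and 25.7 FPKM, and Tfdp1, the partner of E2F, at 48.2, 49.4, 21.4 and 20.7 FPKM, while Ccnd3, cyclin D3, was at 21.1, 20.4, 29.3 and 35.6 FPKM.

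Of 16 genes of cell cycle inhibitors 8 were lower with age in control and 7 in KO retina, and 3 were higher in each. Cdkn1b, the gene of p27, was at 38.6, 41.6, 42.5 and 38.1 FPKM, and the antiproliferative gene Btg2 at 64.7, 59.3, 28.1 and 38.5 FPKM. Replication histone genes that differed with age beyond counting error were mostly higher. Of 26, 11 were higher with age in control and 10 in KO retina, and 1 and 0 were lower (medians 0.39 and 0.53). The bounds of the other histone genes, the larger part of the list in each genotype, overlapped. Hist1h2bc was at 7.25, 9.42, 104 and 107 FPKM. Its levels lay above their own upper bounds at P14 (84.7 and 85.2), and histone genes stand in many near-identical copies, so single values are uncertain.

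In the same libraries 9 of 10 progenitor markers were lower with age in control and 8 in KO retina beyond counting error, while Hes1 was higher. Of 6 Mueller glia markers 5 were higher and 1 lower in each genotype, with a summed level of 965 and 1006 FPKM in control and KO at P7 and 2433 and 2513 FPKM at P14. Other cell types of the postnatal retina can divide as well. Of 6 microglia genes 3 in control and 4 in KO retina were lower (30.1, 28.0, 17.0 and 14.8 FPKM summed) and 0 higher. Of 7 endothelium and pericyte genes 3 were lower and 2 higher in each genotype (129, 129, 85.3 and 90.0 FPKM summed), shares near those of all genes. None of the microglia or vascular markers was at 0 in any library. Their part in the age differences of the 37 genes was not tested.

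**Figure D4:**
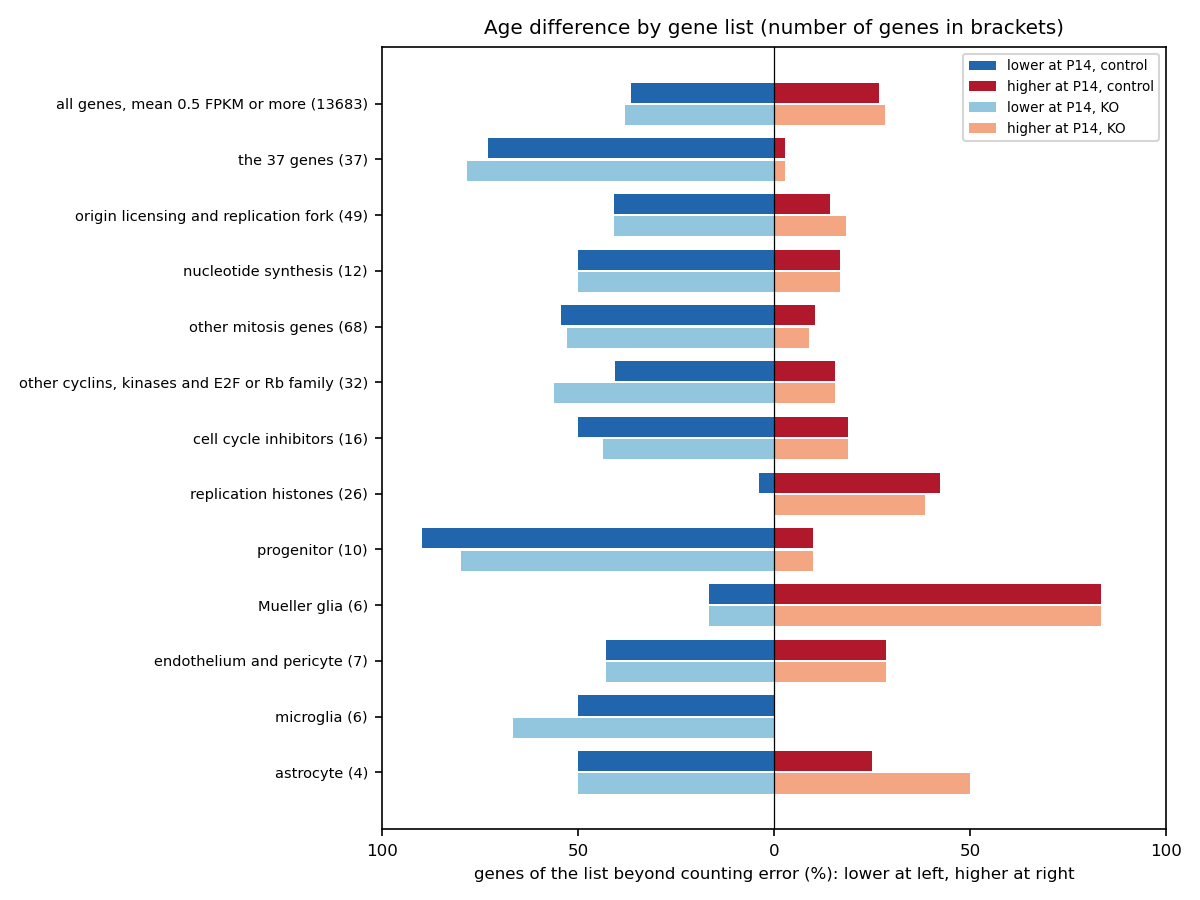
Share of the genes in each list that were lower (left) or higher (right) at P14 than at P7 beyond counting error, in percent, in control (dark) and KO retina (light), with the number of genes in brackets. The 37 genes reach 73.0% and 78.4% lower, and the histone list is the only cell cycle list with more genes higher than lower.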

How the data were processed

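Per the file headers, each library has 1 deposited table of FPKM per gene, with a status and a pair of bounds. The submitters' processing notes name Cufflinks 2.1.1, TopHat2 2.0.8b, CASAVA 1.8.2 and the build mm9. The annotation is not given in the sources used here, nor are the options. Libraries were primed with random primers and read as 36-base single ends, per the labels' protocols, which name no strand marking, so overlapping genes cannot be told apart.

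The 23021 loci were summed by symbol to 22558. Left out of the counts over all genes were 16 symbols with a failed value, small RNAs and loci under 300 bases, and genes under a mean of 0.5 FPKM over the 4 libraries. Starts were raised by 1 to count from 1, since 466 of 474 microRNA hairpins then had their known length. Differences are on log2(FPKM + 1). The limma fit (limma 3.58.1 in R 4.3.3, variance trend, adjustment over all genes) was tested on simulated data of 13683 genes. It recovered a median of 48 (age) and 48.5 (genotype) among 50 genes changed 1.5-fold in FPKM + 1. In FPKM itself such a change is larger, most of all for low genes. A median of 10.9% and 9.36% of its calls were false, above the nominal level. The simulated spread was independent normal noise with the variances of the fit itself, so recovery under the real spread was not tested. All 37 genes and their role groups are given, and of each other list up to 3 genes with the highest mean level. Incenp, Cdkn1a and Trp53 are given outside this rule. The members and lists were chosen with earlier results of these data known. With 1 library per group, p-values do not measure a spread between replicates. The 1 residual degree of freedom is the part of the genotype difference that changes with age, drawn toward the spread shared by all genes. Alternatives were other pseudocounts, floors, TPM, a gap between bounds, fits without the trend or with age alone, and leaving out each library. Some marker genes of the lists are not reported here.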

Additional observations from a re-analysis of the deposited data

How the results depend on the processing

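Of the genes lower with age, the counts of 27 in control and 29 in KO retina became 29 and 29 on the TPM scale, 25 and 23 with a 1.2-fold gap between bounds, and 20 and 21 without the 10 genes that overlap another gene or have a named pseudogene, a choice made after seeing the data. TPM shifted the median of all genes by -0.10 in control and -0.11 in KO retina. The median age difference of the 37 genes was -1.32 in control and -1.33 in KO retina with a pseudocount of 0.1 FPKM, -0.76 and -0.94 with 0.5 FPKM, and -0.91 and -1.05 on the TPM scale. Between the genotypes, the count at P7 became 1 with the gap and 4 on the TPM scale, where Ccnd1 was also called lower in KO. The count at P14 became 2 on the TPM scale, where Ccna2 joined Mki67. With a floor of 1 FPKM limma fitted 16 of the genes and called 13 for age, 12 of them lower. In the fit with age alone on all 4 libraries, 24 of the 28 genes of the list that were fitted were called, 23 of them lower. Leaving out each library in turn leaves 1 library at 1 age, so counts of those fits are not given. The genotype calls over all genes, 32 at first, were 16 with a pseudocount of 0.1 FPKM, 16 with no variance trend, 20 with small RNAs kept and 0 with no floor, where 1130 genes had an unadjusted p below 0.05; 0 of the 37 genes was called in any of these. No paired analysis was possible because each group has 1 library, beyond the additive fit itself, which compares the genotypes within each age. Depth limits the genes under 1 FPKM most.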

Other observations

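Cdkn1a, the gene of the cycle inhibitor p21, was higher in the KO library at both ages beyond counting error. It was at 20.2 FPKM in KO against 16.5 FPKM in control at P7 (bounds 18.7 to 21.9 and 15.1 to 17.9) and at 6.75 against 4.80 FPKM at P14 (5.93 to 7.57 and 3.99 to 5.60). It is not among the 37 genes and was chosen after its values were seen. Btg2, another inhibitor, was lower in KO at P7 (59.3 against 64.7 FPKM) and higher at P14 (38.5 against 28.1 FPKM), beyond counting error at each age. At P7, however, each level lay above its own upper bound (58.6 in KO and 63.7 in control). The KO level lay within the control bounds (59.0 to 63.7), so the P7 call is uncertain. Trp53, the gene of p53, was at 24.0 and 22.9 FPKM in control and KO retina at P7 and at 6.10 and 6.93 FPKM at P14, so both P14 levels lay under both P7 levels.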
